A study of Mus musculus with 36 samples.

Results

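Effector cytokine genes encode the secreted and membrane-bound signals through which activated T cells act on other cells. Here they are the 9 genes Ifng, Tnf, Il2, Il10, Csf2, Lif, Il3, Fasl and Tnfsf10 of 18193 genes measured, described over 36 expression arrays of mouse CD8 T cells. They were taken as the 13 probe sets annotated to these symbols alone, and a gene measured by several was read from the one with the highest mean over all arrays. OT-I T cells, whose receptor recognises an ovalbumin peptide, received a short hairpin RNA and were transferred into mice carrying B16 melanoma, and T cells were then purified from tumor or spleen. There were 6 transductions under 2 tissue labels, with 3 arrays for each of the 12 groups. The hairpins targeted Ppp2r2d, Egr2, Ptpn2, Arhgap5, Alk or, as the control, the bacterial gene LacZ. All groups share the OT-I receptor, the transduction and the tumor-bearing host, and none holds untransduced cells or cells from mice without a tumor. The labels give no age, no time after transfer and no number of hairpins per gene. Nothing in them says that the 3 arrays of a group came from separate animals, so a p rests only on how far arrays of a group vary, which may be technical. Values are on the deposited log2 scale, where a difference of 1 is a 2-fold change, and errors are SE for differences and SD for group values (n = 3 arrays a group).

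Cytokine genes of T cells are transcribed when the antigen receptor and costimulatory receptors are engaged. Calcium signals activate NFAT factors, which bind cytokine promoters with AP-1 and NF-kappaB, and unstable messages are then removed by decay factors, so transcript levels follow recent stimulation. Interferon gamma (Ifng) activates macrophages and raises antigen presentation, and tumor necrosis factor (Tnf) drives inflammation and can kill target cells. Interleukin 2 (Il2) is a growth factor of T cells. GM-CSF (Csf2) and interleukin 3 (Il3) act on myeloid cells and their precursors. Leukemia inhibitory factor (Lif) belongs to the interleukin 6 family, and interleukin 10 (Il10) restrains inflammation. Fas ligand (Fasl) and TRAIL (Tnfsf10) are membrane proteins of the tumor necrosis factor family that trigger death receptors.

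Promoters of 8 members were in the RefSeq table (build GRCm38.p6). Il10 was not in it. The 250 bases before the annotated start are shown for the classical T cell cytokines and for the neighbours Csf2 and Il3, because these genes carry the main results. Capitals mark an NFAT core (GGAAA, or TTTCC on the other strand), the AP-1 motif TGANTCA or a TATAAA box. The windows lie at chr10:118440796-118441045 (plus strand), chr17:35202008-35202257 (minus strand), chr3:37125955-37126204 (minus strand), chr11:54249900-54250149 (minus strand) and chr11:54267280-54267529 (minus strand), and each is written 5′ to 3′ on the strand of its gene.
Ifng: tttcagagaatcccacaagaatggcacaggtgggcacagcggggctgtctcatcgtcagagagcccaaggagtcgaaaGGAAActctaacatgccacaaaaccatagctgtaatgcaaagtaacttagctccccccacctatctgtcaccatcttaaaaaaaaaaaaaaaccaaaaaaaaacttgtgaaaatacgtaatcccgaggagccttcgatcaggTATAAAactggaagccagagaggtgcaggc
Tnf: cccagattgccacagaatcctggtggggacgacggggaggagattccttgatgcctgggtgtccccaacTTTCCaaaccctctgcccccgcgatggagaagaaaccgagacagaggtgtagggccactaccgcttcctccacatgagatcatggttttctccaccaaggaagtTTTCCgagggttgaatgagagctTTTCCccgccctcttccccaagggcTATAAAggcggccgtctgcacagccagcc
Il2: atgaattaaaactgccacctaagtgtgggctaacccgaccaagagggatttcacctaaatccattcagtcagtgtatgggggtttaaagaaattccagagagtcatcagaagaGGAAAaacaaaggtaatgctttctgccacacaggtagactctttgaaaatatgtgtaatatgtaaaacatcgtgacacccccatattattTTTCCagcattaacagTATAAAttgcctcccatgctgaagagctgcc
Csf2: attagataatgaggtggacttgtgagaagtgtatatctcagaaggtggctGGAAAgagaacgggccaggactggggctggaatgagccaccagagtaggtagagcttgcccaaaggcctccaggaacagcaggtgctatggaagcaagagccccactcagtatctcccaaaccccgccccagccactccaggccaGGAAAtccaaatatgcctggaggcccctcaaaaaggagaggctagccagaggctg
Il3: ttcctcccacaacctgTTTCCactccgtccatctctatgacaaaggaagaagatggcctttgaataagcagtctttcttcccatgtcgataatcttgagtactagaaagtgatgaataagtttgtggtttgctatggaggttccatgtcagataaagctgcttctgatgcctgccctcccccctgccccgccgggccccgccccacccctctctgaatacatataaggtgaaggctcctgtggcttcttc
The NFAT core was found in 8 of the 8 member windows and in 55.6% of 27025 promoters of the same length. The AP-1 motif was found in 1 member window, that of Lif, and in 6.87% of all promoters. TATAAA was found in the windows of Ifng, Tnf and Il2, and in 8.12% of all promoters. These are letter matches and not binding sites. Csf2 (chr11:54247270-54249899) and Il3 (chr11:54265085-54267279) are separated by 15185 bases of chromosome 11.

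The labels were checked against marker genes before any comparison. Melanocyte genes were lower in labelled tumor for 7 of 8 listed, and their summed level (log2 of summed linear values) was 2.47 to 3.71 in labelled tumor arrays and 6.47 to 8.18 in labelled spleen arrays. Macrophage genes were lower in labelled tumor for 11 of 12, with summed levels of 2.37 to 3.59 in labelled tumor and 5.84 to 8.52 in labelled spleen. Genes of dendritic cells and MHC class II were lower for 6 of 8 and higher for 1. B cell genes ran the other way, with 6 of 6 higher in labelled tumor and summed levels of 4.60 to 6.29 there, against 3.97 to 4.79 in labelled spleen. These markers oppose the tissue labels, so groups are called labelled tumor and labelled spleen throughout, and a direction between the labels holds only for arrays so labelled. T cell genes were higher in labelled tumor for 3 of 10 and lower for 1, and Cd8a read 6.25 to 7.21 in labelled tumor and 6.13 to 7.46 in labelled spleen. The hairpin target itself was below LacZ for 4 of 5 hairpins under each label, but passed the test for 0 in labelled tumor and for 1 in labelled spleen, Ppp2r2d (-1.37 ± 0.42, limma adjusted p = 0.0286). Ptpn2 array 1 of labelled tumor stood apart, with a Gapdh 3′ minus 5′ difference, a measure of RNA breakdown, of 2.94, against 0.86 to 1.14 in the other 17 arrays of that label. Its best correlation with another array was 0.905, against 0.983 to 0.994 in those 17. The same 3′ minus 5′ measure for Actb was 0.73 on it, inside the 0.39 to 0.86 of the others, so the 2 control genes disagree on breakdown.

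The comparison of labelled tumor with labelled spleen asks how cytokine transcripts differ between T cells from the 2 sites. Taken over all 6 transductions, 8 of the 9 genes were lower in labelled tumor, and Tnf did not pass the test. The measured differences ran from -0.72 for Fasl to -3.56 for Csf2. For Il3 and Il10, whose labelled tumor readings lay at the low end of the arrays, lower bounds on size are given below. Of all genes, 70.7% passed it, 33.1% as lower and 37.6% as higher in labelled tumor. The median difference was -2.94 over the members and 0.13 over all genes. Over all comparisons made here the median of all genes lay between -0.48 and 0.46, and between -0.06 and 0.03 after quantile normalization. On 4 members, Il2, Il10, Csf2 and Il3, all 18 labelled tumor arrays lay below all 18 labelled spleen arrays, which 6.51% of genes did. Because these are bulk samples, fewer cells of a type and less RNA per cell cannot be told apart. The lower macrophage, melanocyte and dendritic cell genes in labelled tumor move with these differences, and their part in the result was not tested. The Gapdh 3′ minus 5′ difference also differed between the labels. It was 0.86 to 1.14 in 17 labelled tumor arrays and 2.94 in 1, against 0.25 to 0.83 in the 15 hairpin arrays of labelled spleen. In the LacZ arrays of labelled spleen it was 0.83 to 1.39. The same difference for Actb did not separate the labels. It was 0.39 to 0.86 in labelled tumor, 0.34 to 0.88 in the hairpin arrays of labelled spleen and 0.62 to 1.49 in the LacZ arrays there. The part of RNA quality in the result was not tested either.

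**Figure D1:**
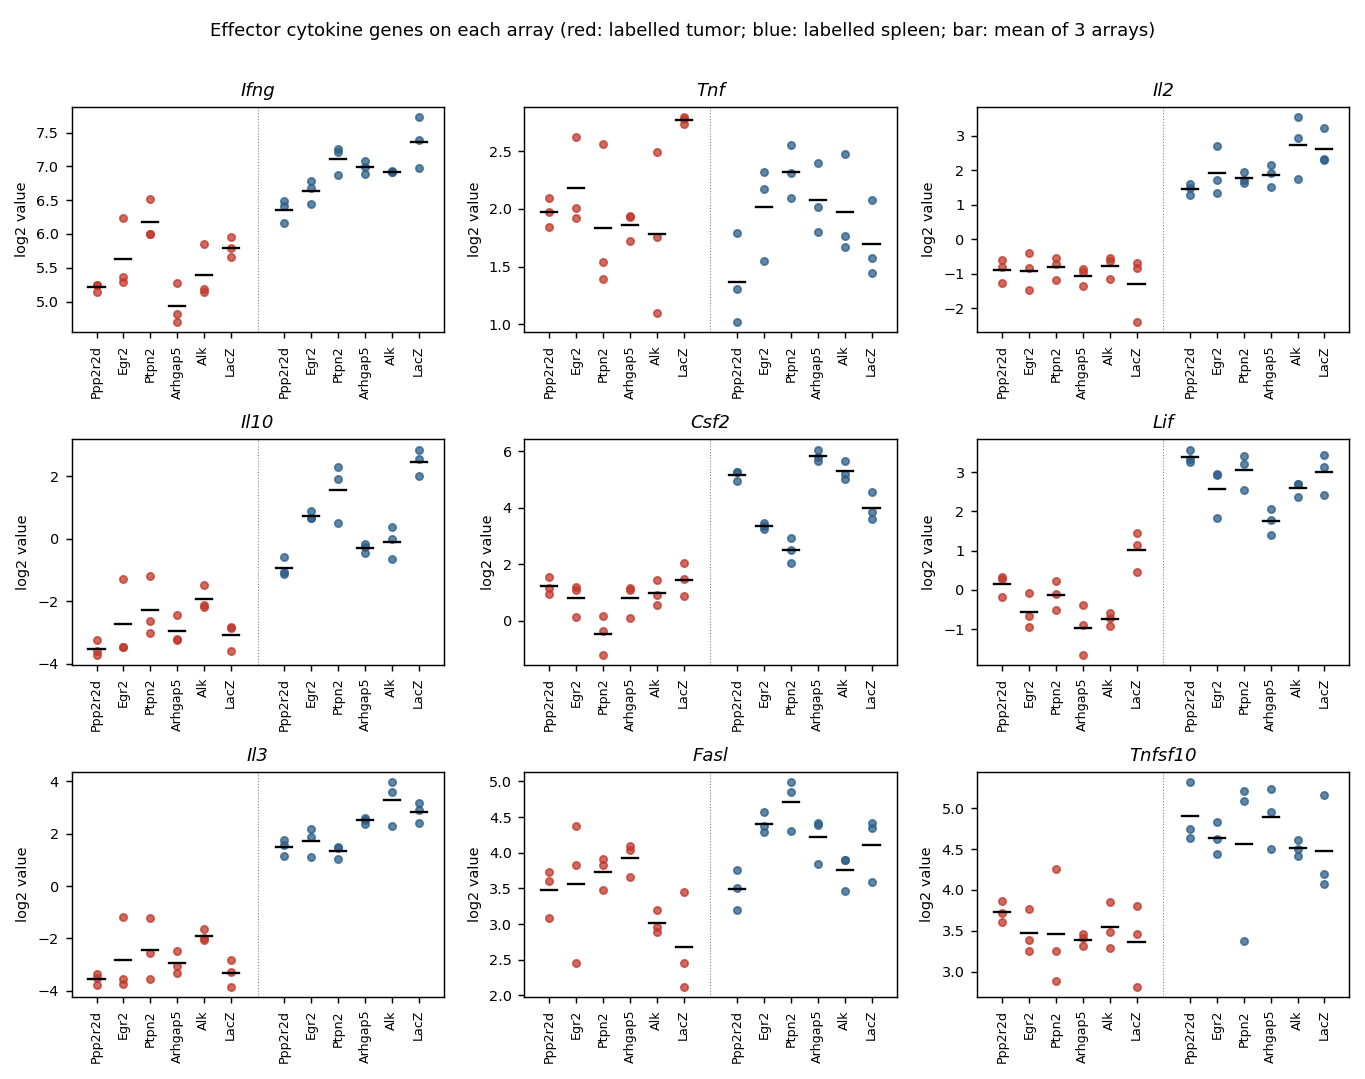
Value of each gene on each of the 36 arrays (log2, vertical axis), by transduction, with labelled tumor at the left in red and labelled spleen at the right in blue. Points are arrays and bars are means of 3 arrays. Il3 and Il2 separate the labels in every transduction, Tnf does not, and Csf2 and Il10 differ most among the transductions in labelled spleen.

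Il3 readings were -3.85, -3.17 and -1.20 in labelled tumor (lowest, median and highest of 18 arrays), against 1.03, 2.24 and 3.98 in labelled spleen. With each labelled tumor reading taken at no less than the 5th percentile of all genes on its array, Il3 was at least 4.91 lower in labelled tumor (adjusted p = 7.91e-20 for the readings as they stand), and at least 3.58 to 6.04 lower in single transductions. Csf2, the neighbour of Il3, read -1.19, 1.02 and 2.05 in labelled tumor and 2.05, 4.74 and 6.06 in labelled spleen. The labels were divided by only 0.0039 for Csf2, and the readings spread more widely in labelled spleen than in labelled tumor. Its mean difference was -3.56 ± 0.15 (adjusted p = 1.06e-19).

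Il2 read -2.41, -0.84 and -0.42 in labelled tumor and 1.27, 1.84 and 3.54 in labelled spleen, a difference of -3.03 ± 0.17 (adjusted p = 2.42e-16). No array of one label reached the other, and the gap between them was 1.69. Il10 read -3.71, -2.93 and -1.20 in labelled tumor and -1.13, 0.45 and 2.86 in labelled spleen. By the same bound Il10 was at least 3.25 lower in labelled tumor (adjusted p = 6.02e-16 for the readings as they stand), and at least 1.75 to 5.54 lower in single transductions. The Il10 readings of the labels came within 0.07 of each other, and the lowest labelled spleen readings were those of the Ppp2r2d hairpin. Lif read -1.65, -0.28 and 1.45 in labelled tumor and 1.41, 2.82 and 3.58 in labelled spleen, a difference of -2.94 ± 0.14 (adjusted p = 4.63e-18). The Lif ranges met at 1 LacZ array of labelled tumor and 1 Arhgap5 array of labelled spleen.

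Il3 and Il10 lay at the low end of the arrays in labelled tumor. There, Il3 was between -0.34 and 0.01 of the 5th percentile of its own array, and Il10 between -0.24 and 0.31. In labelled spleen, Il3 was at least 4.14 and Il10 at least 1.93 above that percentile. Readings at the low end have no order among themselves and moved with the array: the 3 arrays whose lowest reading was above -1.5 (Egr2 array 2 and Ptpn2 array 3 of labelled tumor, LacZ array 2 of labelled spleen) included the highest Il3 and Il10 readings of labelled tumor. Without those 3 arrays the differences of Il3 and Il10 between the labels still passed the test. Il2 in labelled tumor was 0.37 to 2.98 above the 5th percentile, Lif 0.63 to 4.61 and Csf2 0.80 to 5.20 above it. With the Alk hairpin the Lif readings of labelled tumor were only 0.96 to 1.26 above it.

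**Figure D2:**
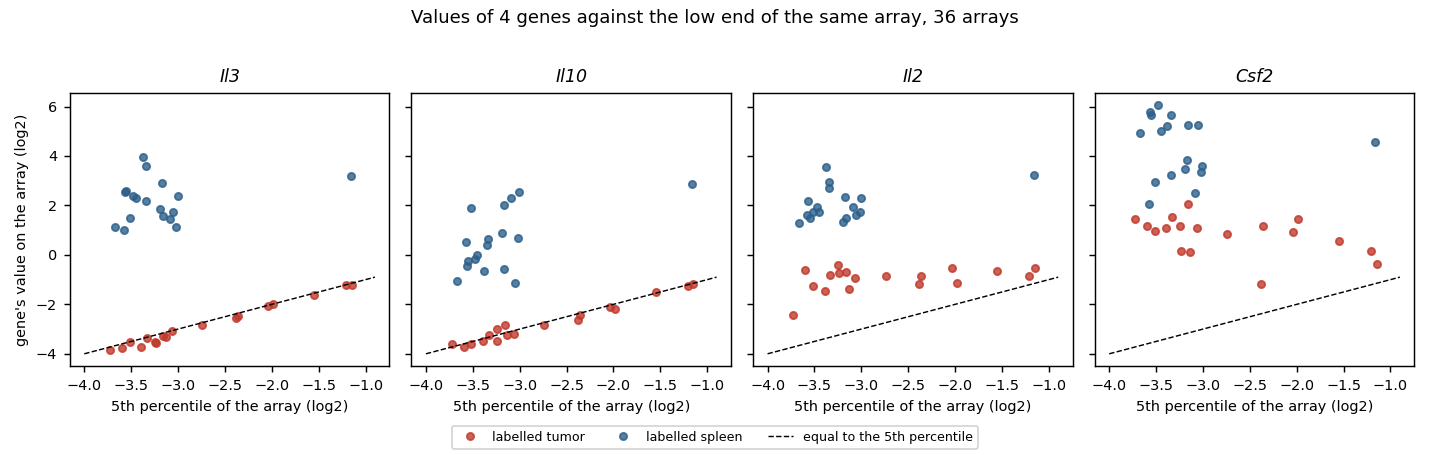
Value of Il3, Il10, Il2 and Csf2 on each array (vertical axis, log2) against the 5th percentile of all genes on the same array (horizontal axis, log2), for 18 labelled tumor arrays (red) and 18 labelled spleen arrays (blue). The dashed line marks equality. Red points of Il3 and Il10 follow the line, within -0.34 to 0.31 of it, and all blue points lie above it.

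The remaining members differed less between the labels. Ifng read 4.69, 5.33 and 6.51 in labelled tumor and 6.17, 6.92 and 7.73 in labelled spleen, a difference of -1.37 ± 0.10 (adjusted p = 4.53e-13). The ranges overlapped across transductions, but within each of the 6 transductions every labelled tumor array lay below every labelled spleen array. Tnfsf10 read 2.81, 3.46 and 4.26 in labelled tumor and 3.38, 4.63 and 5.32 in labelled spleen, a difference of -1.17 ± 0.15 (adjusted p = 7.84e-08). The remaining probe sets of Tnfsf10 gave -1.39 and -2.10, and the probe set with -2.10 read -1.10 to 0.87 in labelled tumor and 1.11 to 2.80 in labelled spleen. Fasl read 2.12, 3.54 and 4.38 in labelled tumor and 3.20, 4.29 and 4.99 in labelled spleen, a difference of -0.72 ± 0.15 (adjusted p = 7.85e-05) with wide overlap. Its other probe set gave -0.88.

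Tnf was the exception. It read 1.10, 1.95 and 2.79 in labelled tumor and 1.02, 1.91 and 2.55 in labelled spleen, so the labels covered nearly the same range. Its mean difference was 0.16 ± 0.13 (95% confidence interval -0.11 to 0.43, adjusted p = 0.277). After quantile normalization, which forces all arrays to 1 distribution, the difference was 0.36 (adjusted p = 0.00762), so the call depends on the scaling. In LacZ cells alone, Tnf was higher in labelled tumor, where it read 2.74, 2.78 and 2.79, against 1.58, 2.07 and 1.44 in labelled spleen (1.07 ± 0.32, adjusted p = 0.0136). A fit of these 6 arrays alone did not call it (adjusted p = 0.163).

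Within single transductions, 44 of 54 differences between the labels passed the test as lower in labelled tumor and 1 as higher. Ppp2r2d cells had 7 members called (22.6% of all genes were called), Egr2 cells 7 (26.4%), Ptpn2 cells 8 (49.2%), Arhgap5 cells 7 (32.3%), Alk cells 7 (53.2%) and LacZ cells 9 (25.2%). Ifng, Il2, Il10, Csf2, Lif, Il3 and Tnfsf10 were called in each of the 6 transductions, but a fit of only the arrays compared lost Ifng in Egr2 cells (adjusted p = 0.108) and Ptpn2 cells (adjusted p = 0.0702). Fasl was called in Ptpn2 cells (-0.98 ± 0.36, adjusted p = 0.0255) and LacZ cells (-1.44 ± 0.36, adjusted p = 0.00264), and its differences in the other 4 transductions were between -0.85 and -0.01. The Ptpn2 call of Fasl was lost without Ptpn2 array 1 or 3 of labelled spleen or Ptpn2 array 1 of labelled tumor (adjusted p = 0.0769 to 0.0899). It was also lost with quantile normalization (-0.43, adjusted p = 0.234), array weights (0.148) and a fit of only the arrays compared (0.072). The LacZ call was lost with array weights (adjusted p = 0.133), in that smaller fit (0.0597) and with the other probe set (0.0533). Fasl passed in Alk cells under 5 alternatives, among them array weights (adjusted p = 0.00275) and the mean of its probe sets (0.0309), and in Egr2 cells under 3, among them array weights (0.00332). The Tnfsf10 calls of the chosen probe set were also narrow. Those in 5 transductions, all but Arhgap5, were each lost on leaving out any of 2 to 5 single arrays (adjusted p = 0.0507 to 0.208). The fit of only the arrays compared lost them in Egr2 (adjusted p = 0.0526), Ptpn2 (0.185) and LacZ cells (0.165). Quantile normalization lost them in Ptpn2 (adjusted p = 0.204), Alk (0.102) and LacZ cells (0.0986), and array weights in LacZ cells (0.152). The 2 probe sets of Tnfsf10 not chosen passed as lower in each of the 6 transductions (adjusted p of at most 0.0253 and 6.79e-05). Tnf was called in LacZ cells only, and its differences in hairpin cells were between -0.49 and 0.60. In 5 of the 6 transductions Tnf thus did not pass, and the other 8 members had differences below 0 in all 6, although Fasl was at 0.02 in Ppp2r2d cells and 0.17 in Arhgap5 cells after quantile normalization.

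**Figure D3:**
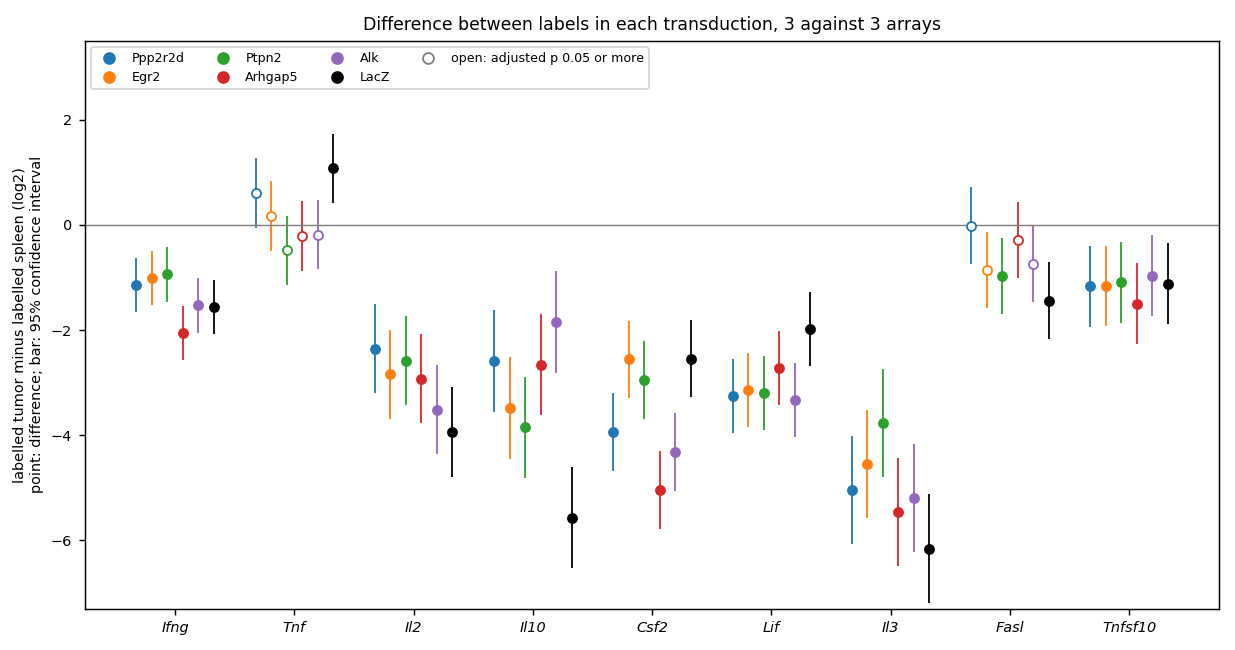
Difference of labelled tumor minus labelled spleen (log2, vertical axis) for each gene in each of the 6 transductions, 3 against 3 arrays. Points are differences, bars their 95% confidence intervals, and open points did not pass an adjusted p of 0.05. The intervals of Il2, Il10, Csf2, Lif and Il3 lie below 0 in every transduction, while those of Tnf lie around 0 except in LacZ cells. Points of Il3 and Il10 rest on labelled tumor readings at the low end, taken as they stand, and are not the lower bounds given in the text.

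The hairpins were compared with LacZ under each label, which asks whether silencing a gene changed cytokine transcripts of cells from 1 site. In labelled spleen, Il10 and Csf2 account for 8 of the 10 calls among 45 tests of members. Il10 was lower than in LacZ cells with 4 hairpins. Csf2 was higher with Ppp2r2d, Arhgap5 and Alk and lower with Ptpn2. The 5 comparisons share the 3 LacZ arrays, so they are not independent of each other. The Gapdh 3′ minus 5′ difference was 0.25 to 0.83 in the 15 hairpin arrays of labelled spleen, against 0.83 to 1.39 in these LacZ arrays. That of Actb was 0.34 to 0.88 against 0.62 to 1.49, with overlap. RNA quality and the control cannot be told apart there.

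Il10 read -1.13, -1.06 and -0.59 with the Ppp2r2d hairpin in labelled spleen, against 2.54, 2.86 and 2.02 in LacZ cells, a difference of -3.40 ± 0.47 (adjusted p = 1.42e-05). It read -0.26, -0.47 and -0.18 with Arhgap5 (-2.78 ± 0.47, adjusted p = 0.000573). With Alk it read 0.00, -0.65 and 0.39 (-2.56 ± 0.47, adjusted p = 0.00169). In these 3 hairpin groups no array reached a LacZ array, and the 3 calls held on leaving out any single array. With Egr2, Il10 read 0.68, 0.66 and 0.90 (-1.73 ± 0.47, adjusted p = 0.0393), also without overlap, but the call was lost without LacZ array 1 or 2 or any 1 Egr2 array (adjusted p = 0.0687 to 0.13). Ptpn2 cells read 1.91, 0.51 and 2.31 and overlapped LacZ (-0.90 ± 0.47, 95% confidence interval -1.87 to 0.07, adjusted p = 0.204), but quantile normalization called the difference (-1.20, adjusted p = 0.00404).

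Csf2 spanned 3.33 log2 units over the group means of labelled spleen. The means were 5.83 ± 0.20 with Arhgap5, 5.29 ± 0.33 with Alk, 5.15 ± 0.19 with Ppp2r2d, 3.36 ± 0.11 with Egr2, 2.50 ± 0.44 with Ptpn2 and 4.00 ± 0.49 in LacZ cells (SD, n = 3 arrays each). The single arrays read 5.66, 5.78 and 6.06 with Arhgap5, 5.01, 5.20 and 5.66 with Alk, 5.26, 4.93 and 5.26 with Ppp2r2d, 3.37, 3.25 and 3.46 with Egr2, 2.94, 2.05 and 2.51 with Ptpn2, and 3.61, 4.56 and 3.83 in LacZ cells. Arrays of the 3 highest groups overlapped their neighbours in that order, and all of them lay above LacZ. Egr2 lay below LacZ and Ptpn2 below Egr2, in both cases without overlap. Against LacZ the difference was 1.83 ± 0.36 with Arhgap5 (adjusted p = 0.00249), 1.29 ± 0.36 with Alk (adjusted p = 0.0272) and 1.15 ± 0.36 with Ppp2r2d (adjusted p = 0.0334). It was -1.50 ± 0.36 with Ptpn2 (adjusted p = 0.01) and -0.64 ± 0.36 with Egr2 (adjusted p = 0.301). The Arhgap5 call held on leaving out any single array. The Alk call was lost without LacZ array 1 or 3 or any 1 Alk array (adjusted p = 0.0515 to 0.134), and the Ppp2r2d call without LacZ array 1 or 3 or any 1 Ppp2r2d array (adjusted p = 0.0728 to 0.109). The Ptpn2 call was lost without LacZ array 2 (adjusted p = 0.0634) or Ptpn2 array 2 (adjusted p = 0.0552).

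The other calls in labelled spleen were single ones. Ifng read 6.49, 6.17 and 6.42 with Ppp2r2d and 7.38, 7.73 and 6.97 in LacZ cells, a difference of -1.0 ± 0.25 (adjusted p = 0.00957) that missed the threshold without LacZ array 2 (adjusted p = 0.0574) or without Ppp2r2d array 2 (adjusted p = 0.0668). Lif read 1.78, 2.07 and 1.41 with Arhgap5 and 3.14, 3.44 and 2.41 in LacZ cells, a difference of -1.24 ± 0.35 (adjusted p = 0.0235). The Lif call was lost without LacZ array 1 or 2 or Arhgap5 array 1 or 3 (adjusted p = 0.053 to 0.124). Il3 differences with the 5 hairpins were between -1.51 and 0.46 (adjusted p from 0.0543), and Il2 differences between -1.17 and 0.11 (adjusted p from 0.0592). Quantile normalization called Il3 as lower with Ppp2r2d (-1.57, adjusted p = 0.000601), Egr2 (-1.30, adjusted p = 0.0137) and Ptpn2 (-1.77, adjusted p = 0.000481), and Il2 as lower with Ppp2r2d (-1.40, adjusted p = 0.0225). Fasl, Tnf and Tnfsf10 had adjusted p of at least 0.202 with each hairpin. In a fit of only the arrays compared, the calls of Ifng with Ppp2r2d (adjusted p = 0.115), Csf2 with Ppp2r2d (0.0869), Csf2 with Alk (0.0723) and Lif with Arhgap5 (0.0752) were lost. Array weights ended the calls of Il10 with Egr2 (adjusted p = 0.0546) and Csf2 with Ptpn2 (0.065), and quantile normalization that of Csf2 with Ppp2r2d (0.0505). For Tnfsf10, one of the 2 probe sets not chosen was higher than LacZ with Ppp2r2d (1.35, adjusted p = 0.00266), Arhgap5 (1.20, adjusted p = 0.0101) and Ptpn2 (1.14, adjusted p = 0.014), so its probe sets disagree on the call.

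Counted per hairpin in labelled spleen, Ppp2r2d cells had 3 members called where 12.8% of all genes were, and Egr2 cells 1 where 3.23% were. Ptpn2 cells had 1 where 9.58% were, Arhgap5 cells 3 where 8.89% were, and Alk cells 2 where 7.4% were. The Ptpn2 share is near its background and says nothing particular of the members. The median of all genes in these comparisons lay between -0.24 and -0.15, so most genes read slightly lower than in LacZ cells. Macrophage genes also differed: Cd68 was 2.38 ± 0.28 and C1qa 2.64 ± 0.40 higher with Alk than in LacZ cells. The group mean of the summed macrophage level was 6.43 with Ppp2r2d, 7.14 with Egr2, 7.02 with Ptpn2, 6.95 with Arhgap5 and 8.20 with Alk, against 6.20 in LacZ cells. It was above LacZ with each hairpin, while Il10 read below LacZ with each and Csf2 above or below, and its part in the Il10 and Csf2 differences was not tested. With Ppp2r2d, the T cell gene Cd8a was 0.86 ± 0.24 lower (adjusted p = 0.0167) and the mast cell gene Cpa3 2.69 ± 0.49 higher (adjusted p = 0.000421) than in LacZ cells, and their part in the Ifng, Il10 and Csf2 differences was not tested either.

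**Figure D4:**
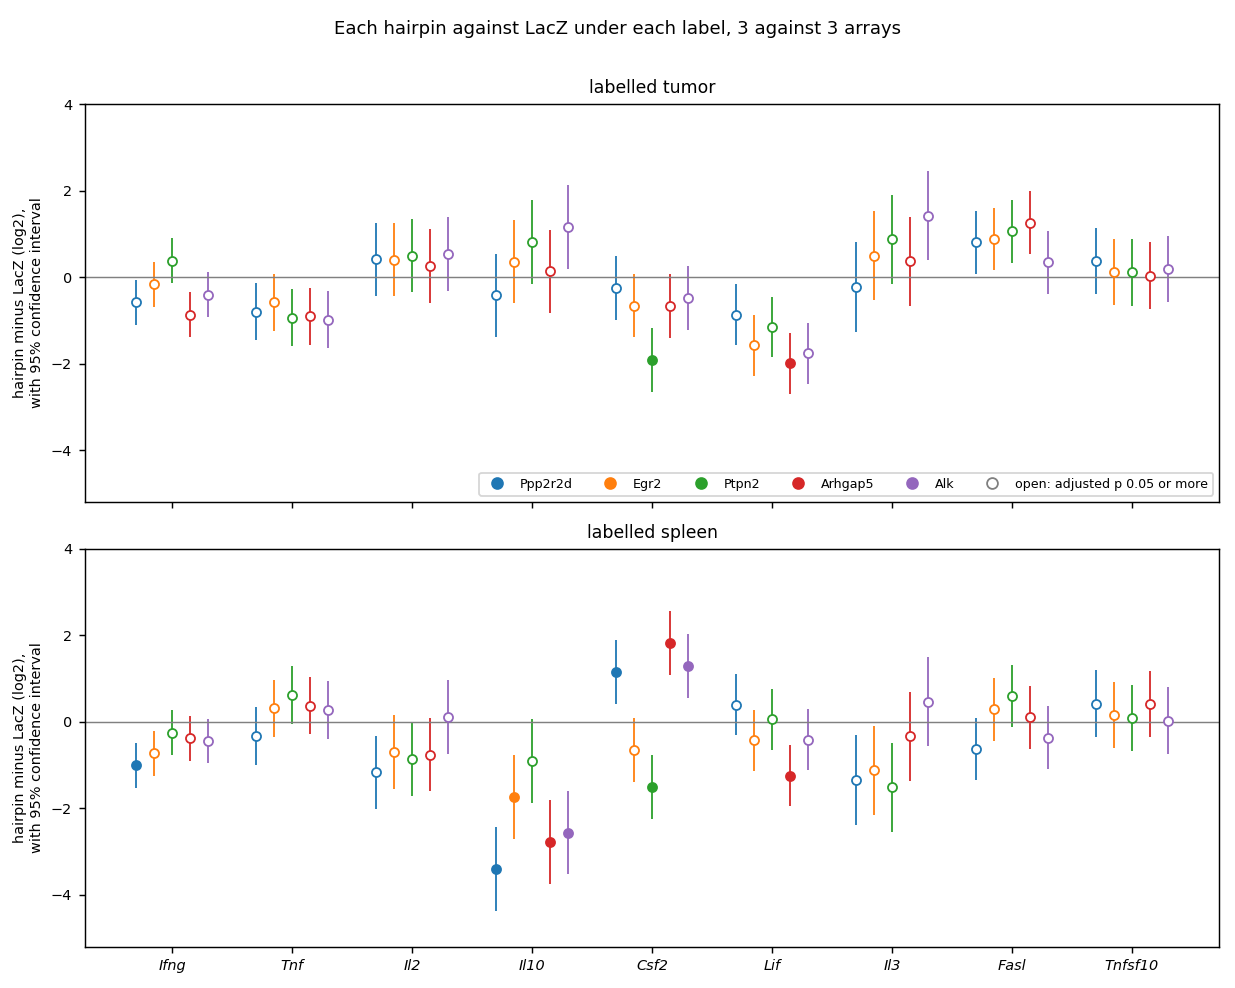
Difference of each hairpin minus LacZ (log2, vertical axis) for each gene in labelled tumor (upper panel) and labelled spleen (lower panel), 3 against 3 arrays. Points are differences, bars 95% confidence intervals, and filled points passed an adjusted p of 0.05. The filled points are 10 in labelled spleen, mostly Il10 and Csf2, and 2 in labelled tumor, Csf2 with Ptpn2 and Lif with Arhgap5.

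In labelled tumor, 2 of 45 tests of members passed. Csf2 read -1.19, 0.18 and -0.35 with Ptpn2 and 1.46, 0.86 and 2.05 in LacZ cells, a difference of -1.91 ± 0.36 (adjusted p = 0.00414). Csf2 was thus lower with the Ptpn2 hairpin under both labels. Its lowest reading there is that of Ptpn2 array 1, the array that stood apart, and without that array the difference was -1.54 (adjusted p = 0.0829). Without LacZ array 3 it was -1.62 (adjusted p = 0.0749). With array weights the call was lost too (adjusted p = 0.0745). Csf2 on Ptpn2 arrays 1 and 3 lay only 1.19 and 0.80 above the 5th percentile of the array. On Ptpn2 array 2 it lay 3.42 above, and on the LacZ arrays 3.60 to 5.20. Lif read -1.65, -0.39 and -0.89 with Arhgap5 and 0.45, 1.14 and 1.45 in LacZ cells, a difference of -1.99 ± 0.35 (adjusted p = 0.00193). Lif was thus lower with the Arhgap5 hairpin under both labels too, and its call in labelled tumor was lost without Arhgap5 array 1 (-1.65, adjusted p = 0.0581). In a fit of only the arrays compared neither difference passed (adjusted p = 0.745 for Csf2 and 0.166 for Lif).

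Tnf and Lif read below LacZ with all 5 hairpins in labelled tumor, although 1 of these 10 differences passed the test. Their 15 hairpin arrays read 1.10 to 2.63 for Tnf and -1.65 to 0.32 for Lif, against 2.74 to 2.79 and 0.45 to 1.45 in the 3 LacZ arrays. Tnf differences were between -0.99 and -0.58 and none passed (adjusted p from 0.123). Lif differences were between -1.99 and -0.87, of which the Arhgap5 one passed. A second probe set of Lif read above LacZ with Egr2 (0.23), Ptpn2 (0.40) and Alk (0.21). It read below LacZ with Ppp2r2d (-0.39) and Arhgap5 (-0.19), and none of its differences passed. What is said of Lif here thus rests on 1 probe set. A place of all 15 hairpin arrays below all 3 LacZ arrays was held by 4 genes, 0.022% of those measured: Tnf, Lif, the interferon-induced gene Ifit1 and the clone 4933407K13Rik. This count was looked for after the values were seen, and it rests on the same 3 LacZ arrays throughout. After quantile normalization it held for 34 genes, Lif among them and Tnf not, although both remained below LacZ with each hairpin in the mean. Fasl ran the other way, with all 5 differences above LacZ (0.34 to 1.26) and none passing (adjusted p from 0.135).

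Per hairpin in labelled tumor, the members called were 0 with Ppp2r2d (0.995% of all genes called), 0 with Egr2 (0.0275%), 1 with Ptpn2 (0.764%), 1 with Arhgap5 (0.368%) and 0 with Alk (0.0055%). At an unadjusted p under 0.05 in the limma fit the numbers of members were 4 with Ppp2r2d (13.5% of all genes), 2 with Egr2 (5.35%), 4 with Ptpn2 (19.8%), 4 with Arhgap5 (4.55%) and 4 with Alk (25.6%). The Alk count includes Il3 and Il10, which read at the low end in both groups. The median of all genes was 0.06 to 0.33 above LacZ in these comparisons, and quantile normalization, which removes that shift, called 2 members with Ppp2r2d, 3 with Ptpn2, 3 with Arhgap5 and 2 with Alk. Ifng with Ppp2r2d (-0.81, adjusted p = 0.000449) and Lif with Alk (-2.01, adjusted p = 0.00901) were among those calls. Calls over all genes rose too after quantile normalization with each of these hairpins, so the rise was not confined to the members.

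Among the 5 gene hairpins alone, without LacZ, limma F tests asked which members differed within a label. In labelled spleen, 4 members did where 5.39% of all genes did. These were Csf2 (F = 31.0, adjusted p = 1.92e-07), Il10 (F = 8.46, adjusted p = 0.00443), Lif (F = 6.37, adjusted p = 0.0195) and Il3 (F = 5.31, adjusted p = 0.0437). Il3 group means in labelled spleen were 3.30 ± 0.87 with Alk, 2.51 ± 0.11 with Arhgap5, 1.72 ± 0.54 with Egr2, 1.49 ± 0.31 with Ppp2r2d and 1.32 ± 0.26 with Ptpn2, and those of LacZ cells 2.83 ± 0.40. The last 3 hairpin groups overlapped in that order. In labelled tumor, 2 members differed where 12.9% of all genes did, Ifng (F = 6.82, adjusted p = 0.0117) and Csf2 (F = 6.45, adjusted p = 0.0148). Ifng was highest there with Ptpn2 (6.00, 6.00 and 6.51) and lowest with Arhgap5 (4.69, 5.28 and 4.82). Csf2 was lowest in both labels with Ptpn2.

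The difference between labels was itself compared with that of LacZ cells, as an interaction term in the same fit. Of the members, 1 passed for Ppp2r2d (0.786% of all genes passed), 0 for Egr2 (0%), 2 for Ptpn2 (17.3%), 2 for Arhgap5 (2.82%) and 4 for Alk (25.4%). The share for Ptpn2 is near that of all genes and says nothing particular of the members. After quantile normalization 404 genes passed for Ptpn2 and 891 for Alk, in place of 3151 and 4616. The Il10 term passed for Ppp2r2d, Arhgap5 and Alk and the Il3 term for Ptpn2, but their labelled tumor readings lie at the low end of the arrays, so these terms set bounds against each other and give no measured difference. For Csf2 the difference was -5.04 in Arhgap5 cells and -4.32 in Alk cells, against -2.54 in LacZ cells (-2.50 ± 0.51, adjusted p = 0.0124, and -1.78 ± 0.51, adjusted p = 0.0182). The Csf2 term for Arhgap5 held on leaving out any single array but was lost in a fit of only the groups compared (adjusted p = 0.0642), and the Csf2 term for Alk was lost after quantile normalization (adjusted p = 0.0519). In Egr2 cells 0 genes passed in the limma fit, and 3 members had an unadjusted p under 0.05, as did 18.5% of all genes.

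Genes of the wider cytokine pathway were counted in the mean difference between the labels, against 37.6% of all genes higher and 33.1% lower in labelled tumor. Receptors that induce cytokine genes were lower for 7 of 8 and higher for 0. Tnfrsf4 (OX40) differed by -4.81 ± 0.10, Tnfrsf9 (4-1BB), a costimulatory receptor, by -4.30 ± 0.14 and Il12rb2, a chain of the interleukin 12 receptor, by -2.79 ± 0.14. Other cytokines were split, with 6 of 20 higher and 9 lower, and those lower include Il1b (-4.48 ± 0.15), a product of myeloid cells, and Tnfsf11 (RANKL, -3.06 ± 0.16). Receptors of the members were split too, 6 of 16 higher and 7 lower, with Il2ra, the high-affinity interleukin 2 receptor chain, at -3.77 ± 0.13 and Csf2rb2, a mouse interleukin 3 receptor chain, at -3.24 ± 0.17.

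Transcription factors of cytokine genes were higher for 9 of 25 and lower for 12. Prdm1 (Blimp-1), which restrains Il2 in T cells, was lower in labelled tumor (-3.58 ± 0.14), as was Zeb2 (-4.67 ± 0.24), while the AP-1 gene Fosb (1.93 ± 0.12) and the T-box factor Eomes (1.70 ± 0.11) were higher. Decay factors of cytokine messages were higher for 5 of 9 and lower for 3, and Zc3h12a (Regnase-1), which cleaves such messages, was 1.89 ± 0.14 higher in labelled tumor. Signal transducers and death adaptors were lower for 7 of 13 and higher for 1. Targets of interferon gamma were lower for 5 of 12 and higher for 2. Of these the chemokine Cxcl9 differed by -4.78 ± 0.17 and Irf8, also a factor of myeloid cells, by -3.90 ± 0.11. Natural killer and CD4 T cell markers were lower for 2 of 3, and neutrophil and mast cell markers for 2 of 5.

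With the hairpins in labelled spleen, the shared interleukin 3 and GM-CSF receptor chain Csf2rb was higher than LacZ in all 5 comparisons (1.35 ± 0.36 with Ppp2r2d, 1.32 ± 0.36 with Egr2, 1.47 ± 0.36 with Ptpn2, 1.37 ± 0.36 with Arhgap5 and 2.25 ± 0.36 with Alk). This chain, which myeloid cells also carry, was higher where its ligand gene Csf2 was higher and also with Ptpn2, where Csf2 was lower. Il21, a cytokine that acts on B and T cells, was lower with Ppp2r2d (-2.26 ± 0.50, adjusted p = 0.00319) and Alk (-1.83 ± 0.50, adjusted p = 0.0238). Its readings in labelled spleen were -3.08 to 0.82, and the 5th percentile of the Ppp2r2d arrays there was -3.67 to -3.05. The lowest Il21 reading thus lay near the low end, which limits the measured size. Il12rb1 was lower with Ppp2r2d (-1.25 ± 0.25, adjusted p = 0.00119), Arhgap5 (-0.83 ± 0.25, adjusted p = 0.0341) and Alk (-0.84 ± 0.25, adjusted p = 0.036), and of these Ifng was called with Ppp2r2d alone. Cxcl9 was higher with Egr2, Ptpn2, Arhgap5 and Alk, by 1.75 to 2.71, while Ifng was not called with any of those 4 hairpins.

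Likeness across arrays was measured as Pearson's r over 35 arrays, without Ptpn2 array 1 of labelled tumor, after subtracting the mean of each label. These values describe arrays that share hairpin groups and array quality, and those of Il3 and Il10 include labelled tumor readings at the low end. The genes most like Ifng were Cit (r = 0.833), Rrm2 (r = 0.83) and Stmn1 (r = 0.816). Those most like Il10 were Il21 (r = 0.856), Map3k12 (r = 0.834) and Cd8a (r = 0.823). Tnf was most like Ier2 (r = 0.692), Nfkbid (r = 0.691) and Nsf (r = 0.665). Il2 was most like Npy (r = 0.692), Adamts3 and Glis3, Csf2 most like Plk2 (r = 0.763), Cdyl and Camk1d, and Lif most like Nckipsd (r = 0.742), Fads1 and Trip13. Il3 was most like Prss23 (r = 0.879), Mgl2 and Ankrd66, Fasl most like Gpr132 (r = 0.745), Smim3 and Snx10, and Tnfsf10 most like Noc3l (r = 0.861), Arid4a and Papolg. No member was among the 3 genes most like another. Between members, r was highest for Il2 with Il3 (0.626) and Ifng with Il10 (0.599), and lowest for Csf2 with Il10 (-0.58). Csf2 and its neighbour Il3 had r = 0.176.

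The second probe set of Lif behaved unlike the one described. It read -2.78, -1.66 and -0.82 in labelled tumor and -2.11, -1.64 and -0.92 in labelled spleen, and its mean difference was -0.16 (adjusted p = 0.318). The mean of both sets ended the Lif calls with Arhgap5 in labelled tumor (adjusted p = 0.15) and in labelled spleen (adjusted p = 0.0702), so these rest on 1 probe set. Ifng, Tnf, Il2, Il10, Csf2 and Il3 were each measured by 1 probe set annotated to them alone.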

How the data were processed

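RNA of 36 samples was hybridised to 3′ expression arrays, 3 for each of 12 groups set by the labels. Per the submitters' processing notes the authors used RMA, which corrects background and summarises probes. Its version is not given in the sources used here. From their range, the deposited values are log2, and how arrays were centred is unknown (array medians -0.48 to -0.23), so levels of different probe sets were not compared. The number of arrays limits the precision.

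The members and gene lists were chosen with earlier results of these data known. Of 45101 probe sets, 34945 carried 1 gene symbol, which gave 18193 genes, each represented by its set with the highest mean. A set annotated to Il2 and another gene was not used. A limma fit (3.58.1, R 4.3.3) of 12 group means had 24 residual degrees of freedom. Its two-sided tests were adjusted over all genes by Benjamini-Hochberg with a threshold of 0.05, and it was tested on simulated data. Adjusted p-values come from this fit unless another setting is named beside them. Low-end readings of Il3 and Il10 in labelled tumor were bounded at the array's 5th percentile. All 9 members were named throughout. From each list, named genes were at most 4 with the largest called differences and no overlap between labels, and at most 2 called per hairpin comparison in which a member was called. The 3 genes most like each member were named by Pearson's r. No gene was filtered out for low values, so all 9 members were tested. Alternatives were quantile normalization, the mean of probe sets, a filter, array weights, fewer arrays in the fit, blocks, and leaving out arrays.

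Arrays with the same replicate number did not pair: over 18 pairs of a labelled tumor and a labelled spleen array, the deviations from group means correlated at -0.236 to 0.244, with only 4 pairs over 0.1. No array was a copy of another.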

Additional observations from a re-analysis of the deposited data

Results flagged for a closer look

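Each result here is a gene whose labelled tumor minus labelled spleen difference was itself different with a hairpin than in LacZ cells, by the interaction term of the limma fit (log2, 6 against 6 arrays). For Il10 the term was 3.72 ± 0.67 with Alk (adjusted p = 0.00429), 2.98 ± 0.67 with Ppp2r2d (adjusted p = 0.0229) and 2.91 ± 0.67 with Arhgap5 (adjusted p = 0.0221). Labelled tumor readings of Il10 and Il3 lie at the low end of the arrays, so their terms compare bounds and are no measured differences. Csf2 ran the other way, with terms of -2.50 ± 0.51 with Arhgap5 (adjusted p = 0.0124) and -1.78 ± 0.51 with Alk (adjusted p = 0.0182). Tnf, which in LacZ cells was higher in labelled tumor, had terms of -1.56 ± 0.46 with Ptpn2 (adjusted p = 0.0277) and -1.26 ± 0.46 with Alk (adjusted p = 0.043). Il3 had 2.38 ± 0.71 with Ptpn2 (adjusted p = 0.0292), and 1.60 (adjusted p = 0.0763) without the 3 arrays with raised lowest values. Lif had -1.35 ± 0.49 with Alk (adjusted p = 0.0413). All 9 terms share the 6 LacZ arrays.

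Leaving out 1 array ended the call of the Il10 term with Ppp2r2d for 6 arrays and with Arhgap5 for 4, of the Csf2 term with Alk for 2, of the Tnf terms for 5 (Ptpn2) and 9 (Alk), of Il3 for 6 and of Lif for 11, with adjusted p between 0.0521 and 0.17. The Csf2 term with Arhgap5 and the Il10 term with Alk held without any 1 array, but that of Csf2 was lost in a fit of only the groups compared (adjusted p = 0.0642). Quantile normalization ended the Tnf terms with Ptpn2 (adjusted p = 0.122) and Alk (0.093) and the Lif term (0.0781). That smaller fit ended them too (0.206, 0.09 and 0.0556), and the Il3 term (0.206). The filter ended the Tnf (0.0925) and Lif (0.0899) terms with Alk. Array weights ended the Tnf (0.0867) and Il3 (0.105) terms with Ptpn2. Without the 3 arrays with raised lowest values that Tnf term was lost (0.055). The mean of probe sets ended the Lif term (0.296). In labelled tumor, Il10 and Il3 read at the low end of each array, and the 5th percentile there lay between -2.04 and -1.55 with Alk, against -3.72 to -2.74 in LacZ cells.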

How the results depend on the processing

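The mean difference between the labels called 8 members under all alternatives except quantile normalization, which called 9. With the replicate number as a block, 8 members were called in that comparison too, and the block changed no call of a member in any comparison, nor did a random block of same-numbered arrays. Numbers in brackets below are all genes called in the same setting, of 18193 or, with the filter, of fewer. Without the 3 arrays with raised lowest values, chosen after seeing the data, the members called became 2 with Ptpn2 in labelled spleen (1811). In labelled tumor they became 2 with Arhgap5 (106) and 4 with Alk (4021). They became 0 for the Ptpn2 interaction (636) and 5 for the F test in labelled tumor (8634). Quantile normalization called 2 with Egr2 and 3 with Ptpn2 in labelled spleen, in labelled tumor 2 with Ppp2r2d, 3 with Ptpn2, 3 with Arhgap5 and 2 with Alk, and among the interactions 2 for Ppp2r2d, 1 for Ptpn2 and 1 for Alk. Its calls over all genes rose with Egr2 and fell with Ptpn2 in labelled spleen. In labelled tumor they rose with each of the hairpins named, and those for the interactions are given below. Fitting only the groups compared called 5 members between labels in Ptpn2 cells (3124), and 2 with Ptpn2 (996) and 1 with Alk (787) in labelled spleen. In labelled tumor it called 0 with Ptpn2 (4), 0 with Arhgap5 (14), 3 with Alk (2706) and 0 by the F test (700). For the interactions it called 0 with Ptpn2 (0), 1 with Arhgap5 (55) and 2 with Alk (4211). Array weights called 0 with Egr2 (402) and 0 with Ptpn2 (1712) in labelled spleen. In labelled tumor they called 4 with Ppp2r2d (3111), 1 with Egr2 (148), 0 with Ptpn2 (22), 4 with Arhgap5 (1158) and 6 with Alk (7833). They called 2 for the Ppp2r2d interaction (527) and 0 for that of Ptpn2 (598). By the F tests they called 8 in labelled spleen (4998) and 6 in labelled tumor (10818). The filter called 2 with Ptpn2 in labelled spleen (1434), 1 with Alk in labelled tumor (8) and 2 for the Alk interaction (748). The mean of probe sets called 0 with Arhgap5 in labelled tumor (54). The cause was not tested. Leaving out 1 array, members called ranged over 1 to 3 (Ppp2r2d), 0 to 1 (Egr2), 0 to 2 (Ptpn2) and 1 to 2 (Alk) in labelled spleen, 0 to 4 (Ptpn2), 0 to 1 (Arhgap5) and 0 to 1 (Alk) in labelled tumor, 0 to 1 (Ppp2r2d), 0 to 4 (Ptpn2), 1 to 2 (Arhgap5) and 1 to 4 (Alk) for interactions, and 2 to 4 and 1 to 5 by the F tests in labelled spleen and labelled tumor. 

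Differences between labels that changed sign were uncalled ones of Tnf and Fasl and those of the second Lif probe set. After quantile normalization Fasl was 0.020 in Ppp2r2d and 0.17 in Arhgap5 cells, and Tnf 0.0055 in Ptpn2, 0.13 in Arhgap5 and 0.012 in Alk cells. Array weights gave Fasl 0.000266 in Ppp2r2d cells, and the 3 arrays left out gave Tnf -0.050 in Egr2 cells. The second Lif probe set gave 0.0044 in Egr2 cells, 0.15 in Ptpn2 cells and 0.19 for the Alk interaction. Leaving out 1 array, Fasl ranged over -0.16 to 0.18 in Ppp2r2d cells, and Tnf over -0.061 to 0.32 in Egr2 and -0.54 to 0.15 in Alk cells. Counts over all genes moved too. In labelled tumor, 1 gene called with Alk became 7833 with array weights, 4021 without the 3 arrays and 2706 in a fit of only the groups compared, 181 with Ppp2r2d became 3111 with array weights, and 2353 by the F test became 10818 with array weights and 700 in the smaller fit. For interactions, 3151 genes for Ptpn2 and 4616 for Alk became 404 and 891 after quantile normalization and 692 and 748 after the filter, while 143 for Ppp2r2d became 365 after quantile normalization. Between labels in Alk cells, 6038 genes were higher and 3645 lower, and 3571 and 4169 after quantile normalization. In LacZ cells 1148 were higher and 3441 lower, and 2300 and 3266 after it. Signal near the low end of the arrays limits Il3 and Il10 in labelled tumor, and on single arrays Il2, Lif and Csf2 there came near it.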
